A study of Mus musculus with 21 samples.

Results

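The genes described are the heat shock proteins, their J-domain partners (the Dnaja, Dnajb and Dnajc genes) and the heat shock factors, 69 of the 35266 genes counted. They were chosen by symbol: the Hspa, Hspb, Hspd, Hspe and Hsph genes, both cytosolic Hsp90 genes, Hsf1 to Hsf4, all numbered Dnaj genes and Cryab, without the 6 endoplasmic reticulum (ER) members Hspa5, Dnajb9, Dnajb11, Dnajc1, Dnajc3 and Dnajc10. The symbols sort into 2 HSP90 genes, 10 HSP70 genes, 3 HSP110 genes, 9 small heat shock protein genes, 2 chaperonin genes, 4 heat shock factors and 4 Dnaja, 11 Dnajb and 23 Dnajc genes. The name of the set is not exact. Among other exceptions, it takes in 8 genes of mitochondrial proteins (Hspa9, Hspd1, Hspe1, Dnaja3, Dnajc11, Dnajc15, Dnajc19 and Dnajc30). It also holds Hspa13, whose product is bound to microsomes, Dnajb12, of the ER membrane, and Hspg2, which encodes perlecan of the extracellular matrix and is no chaperone.

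RNA-Seq had been made from AGRP and POMC neurons of the hypothalamic arcuate nucleus, sorted by hand for fluorescence from male mice that were fed ad libitum or food deprived (FD) for 24 hours. AGRP neurons promote feeding and POMC neurons restrain it. AGRP neurons came from NPY-hrGFP mice (5 fed, 6 FD) and POMC neurons from Pomc-GFP mice (5 fed, 5 FD), all on a C57BL/6J background and aged between postnatal day 46 and 56, each mouse moved to a fresh cage 24 hours before the experiment. Each library held 44 to 214 neurons of 1 mouse, dissociated with pronase, so the replicates are separate animals. The transgenes, driven by Npy and by Pomc sequences, mark the cells, and neuron type and transgenic line cannot be told apart.

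Chaperones bind unfolded stretches of other proteins and help them to fold or pass them on for degradation. HSP70 proteins do so in a cycle of ATP hydrolysis that J-domain proteins start and that HSP110 proteins, as nucleotide exchange factors, reset, whereas HSP90 completes the folding of many kinases and steroid receptors. When unfolded protein accumulates, the transcription factor HSF1 is released and binds heat shock elements in front of the inducible genes, while the ER has its own set of chaperones under other factors.

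Libraries held 9822298 to 37663979 reads on genes, so that 3 reads corresponded to 0.0912 to 0.295 normalized CPM (reads scaled to the effective library size). Agrp and Npy together ranged from 12064 to 68921 TPM (read counts scaled by gene length and library size) in AGRP libraries and from 5.45 to 226 TPM in POMC libraries. Pomc and Cartpt together ranged from 8809 to 37160 TPM in POMC libraries and from 114 to 227 TPM in AGRP libraries. The 16 markers of astrocytes, oligodendrocytes, microglia and endothelial cells summed to 36.5 to 50.4 TPM in fed AGRP, 28.2 to 45.5 in FD AGRP, 20.8 to 40.2 in fed POMC and 24.8 to 54.8 in FD POMC libraries, most of it from oligodendrocyte genes. C1qa was at 0 in every library, Tmem119 and Cldn5 were at 0 in every library outside the FD AGRP group, and the part of other cells in the results was not tested. Of the 4 astrocyte markers, 1 was called between FD and fed AGRP neurons, and the markers did not move together. Aldh1l1 had 0, 1, 0, 1 and 1 reads in fed and 111, 24, 5, 55, 6 and 47 reads in FD AGRP libraries, without overlap (adjusted p = 0.0284, edgeR). Gfap, Aqp4 and Gja1 did not pass the test, and their log2 fold changes lay below 0, the lowest at −0.98. The libraries also fell into 3 sets by the volume of ERCC spike-in RNA added, 1 µl, 10 µl or a volume set by the number of cells. The last set came from mice of day 46 to 51, the others from mice of day 51 to 56, and it held AGRP fed replicates 4 and 5, AGRP FD replicates 1 to 3 and POMC fed replicates 1 and 2. AGRP FD replicate 2, with 1 µl for 50 cells, was placed there by its volume per cell and the age of the mouse, and would also fit the 1 µl set.

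Of the 69 members, 62 passed the filter of CPM over 1 in at least 3 libraries and were tested. Dnajb8, Dnajc22, Hsf3, Hspb2, Hspb3, Hspb7 and Hspb9 did not. Levels between genes are compared here in TPM, which is scaled by gene length. Hsp90ab1, the constitutive HSP90, led with a mean over the 4 groups of 3723 TPM, followed by Dnajc27 (2635), Hspa8, the constitutive HSP70 (1961), Hsp90aa1, the inducible HSP90 (1037), and Hsph1, an HSP110 (826). Dnajc27 owed its rank to POMC neurons alone, with 5141 TPM ± 2138 (SD, n = 5) in fed POMC against 77.8 ± 10.7 (n = 5) in fed AGRP neurons. The other 4 were high in every group: Hsp90ab1 ranged from 2308 to 5684 TPM over all libraries. The inducible HSP70 genes were low by comparison, with group means of 6.13 to 25.7 TPM for Hspa1a and 0.0886 to 3.94 TPM for Hspa1b.

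Cryab, a small heat shock protein of lens, muscle and glia that had been given as a marker of the set, was close to absent. Its reads in the 21 libraries numbered 0 to 38. It lay at 0.16 to 1.95 CPM in fed AGRP and 0.08 to 1.28 CPM in fed POMC libraries, and at 0 in 5 of 6 FD AGRP and 3 of 5 FD POMC libraries. The fold changes for FD against fed were −2.46 ± 1.59 on the log2 scale in AGRP (adjusted p = 0.395) and −2.54 ± 1.73 in POMC neurons (adjusted p = 0.6, edgeR), and they rest on these few reads.

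**Figure D1:**
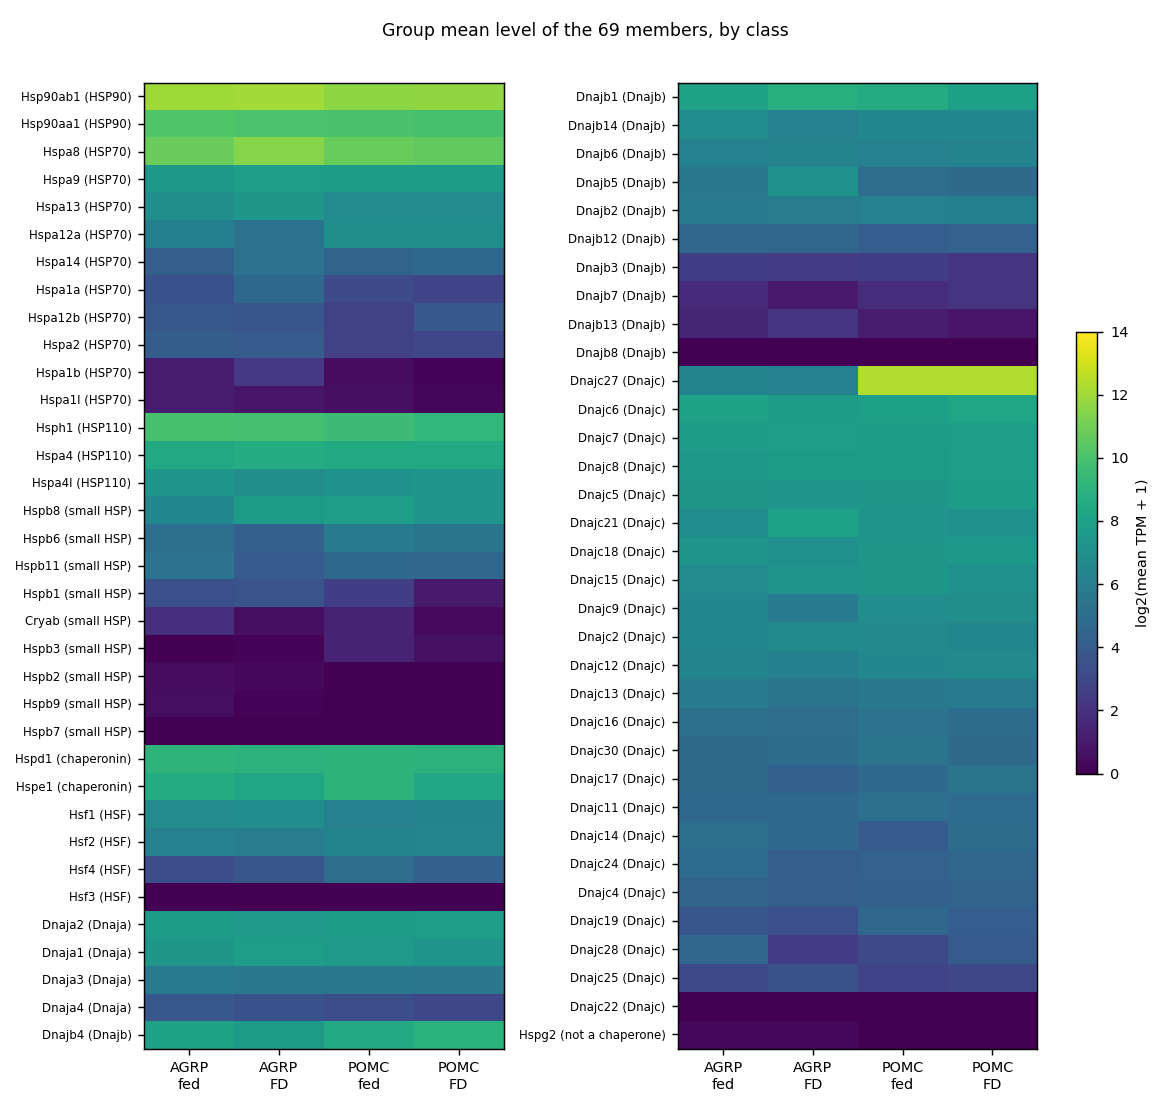
Mean TPM of each of the 69 members in the 4 groups, as log2(mean TPM + 1) by colour, with genes in rows sorted by class and then by level. Hsp90ab1, Hspa8 and Hsp90aa1 were high in all 4 groups, and Dnajc27 was at 5141 TPM in fed POMC against 77.8 TPM in fed AGRP neurons.

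The first question was how these genes responded to food deprivation in AGRP neurons. The constitutive HSP70 gene Hspa8, the J-domain genes Dnajb1, Dnaja1, Dnajb5 and Dnajc21 and the small heat shock protein gene Hspb8 were among those that rose in FD mice. Of the 62 members tested, 9 were higher and 1, Dnajc28, was lower at an adjusted p under 0.05 in edgeR's quasi-likelihood test over all genes. Among all 16513 genes tested, 5.87% were higher and 4.43% were lower. By class, 4 of 10 HSP70, 1 of 4 Dnaja, 2 of 10 Dnajb and 1 of 22 Dnajc genes tested were higher. The groups did not overlap for 8 members, against 7.65% of all genes. Among these 8, Dnajc28 and Dnajb14 lay lower in FD libraries, and Dnajb14 was not called (log2 fold change −0.43 ± 0.15, adjusted p = 0.0585). With the study's stricter criteria, which add a log2 fold change above 1 in size and a mean over 20 CPM, 5 members passed (Dnajb5, Dnajc21, Hspb8, Hspa14 and Dnajc28), against 4.46% of all genes. The median log2 fold change was 0.14 over members and −0.02 over all genes. FD replicate 1, which had the highest level of Aldh1l1 (6.40 CPM), had the lowest FD value of Dnajb5, Dnajc21, Dnaja1, Hspa9 and Hspa14. For the other members called higher the lowest FD value lay elsewhere, in replicate 6 for Hspa8, Hspb8 and Hspa13 and in replicate 3 for Dnajb1. In pooled cells, fewer cells of a kind and less RNA per cell cannot be told apart.

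Hspa8 encodes HSC70, the most abundant HSP70 of the cytosol. It measured 1064, 1212, 1028, 1197 and 1576 CPM in fed AGRP libraries and 1713 to 2912 CPM (median 2372) in FD AGRP libraries. The groups did not overlap, and the log2 fold change was 0.92 ± 0.16 (SE, adjusted p = 0.000243), from 1216 ± 217 (SD, n = 5) to 2294 ± 517 CPM (n = 6). No other called member gained as much in CPM. In TPM the means were 1778 and 2797.

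Among the J-domain genes, Dnajb5, an HSP40 of the Dnajb class, had the largest rise. It measured 44.9, 33.5, 44.6, 62 and 62.6 CPM in fed libraries and 71 to 289 CPM (median 186) in FD libraries. Every FD library lay above every fed library, replicate 1 by the least, and the log2 fold change was 1.93 ± 0.29 (adjusted p = 3.81e-05). Dnajc21, whose yeast counterpart works in ribosome maturation, measured 86, 55.9, 33.4, 71.2 and 75.4 CPM in fed and 115 to 254 CPM (median 181) in FD libraries. These groups did not overlap either, and the log2 fold change was 1.50 ± 0.25 (adjusted p = 0.000116). Dnaja1, a main J-domain partner of Hspa8, measured 298, 285, 245, 245 and 317 CPM in fed and 258 to 588 CPM (median 434) in FD libraries. FD replicate 1 lay within the fed range and the other 5 FD libraries above it, and the log2 fold change was 0.64 ± 0.17 (adjusted p = 0.0123).

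Dnajb1, the classical heat-inducible HSP40, measured 181, 214, 135, 142 and 206 CPM in fed and 155 to 641 CPM (median 339) in FD libraries. FD replicates 1 and 3, at 168 and 155 CPM, stayed within the fed range, and the other 4 lay between 263 and 641 CPM. Its log2 fold change was 0.97 ± 0.29 (adjusted p = 0.0262). The call did not hold when any 1 of fed replicates 1, 3 or 4 or FD replicates 2, 4 or 5 was left out (adjusted p between 0.0513 and 0.112), and the log2 fold change was 0.46 within the 5 AGRP libraries whose spike-in followed cell number. That value rested on FD replicate 2 (415 CPM), and without this library it was −0.12.

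Hspb8 encodes a small heat shock protein that works with Bag3 in chaperone-assisted autophagy. It measured 37.9, 44.9, 54.4, 41.8 and 59.7 CPM in fed and 73.4 to 198 CPM (median 111) in FD AGRP libraries. The groups did not overlap, and the log2 fold change was 1.33 ± 0.25 (adjusted p = 0.000435). Bag3 itself had a log2 fold change of 0.79 in AGRP neurons and did not pass the test (adjusted p = 0.344).

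3 further HSP70 genes rose. Hspa9, the HSP70 of the mitochondrial matrix, measured 170, 154, 131, 133 and 164 CPM in fed and 172 to 294 CPM (median 241) in FD libraries, a log2 fold change of 0.64 ± 0.16 (adjusted p = 0.00822). Hspa13 measured 141, 149, 112, 158 and 182 CPM in fed and 191 to 276 CPM (median 231) in FD libraries, a log2 fold change of 0.65 ± 0.17 (adjusted p = 0.0114). For neither gene did the groups overlap, although the nearest libraries of Hspa9 lay at 170 and 172 CPM. Hspa14, an HSP70 linked to ribosomes, was rarer, with 9.11, 16.7, 4.02, 6.45 and 9.91 CPM in fed and 13.6 to 30 CPM (median 21.8) in FD libraries. Its groups overlapped, the log2 fold change was 1.25 ± 0.39 (adjusted p = 0.0381), and the call was lost without any 1 of 8 libraries (adjusted p between 0.0502 and 0.114), without the cell-number set (0.178), with the replicate block (0.0504) and with no count filter (0.0657).

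Dnajc28, a J-domain protein of little known function, moved the other way. It measured 27.4, 27.6, 20.9, 25.9 and 17.9 CPM in fed and 3.16 to 7.45 CPM (median 5.31) in FD AGRP libraries. The groups were far apart, and the log2 fold change was −2.20 ± 0.38 (adjusted p = 0.000235). The noncoding gene Gm15964, counted as a gene of its own, lies on the opposite strand over Dnajc28. Counting was without strand, so where they overlap a read cannot be assigned to either by its strand. Of the 69 members, 27 overlap another counted gene, and Dnaja1, Hspa8, Hspa9 and Hspa13 are among these.

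**Figure D2:**
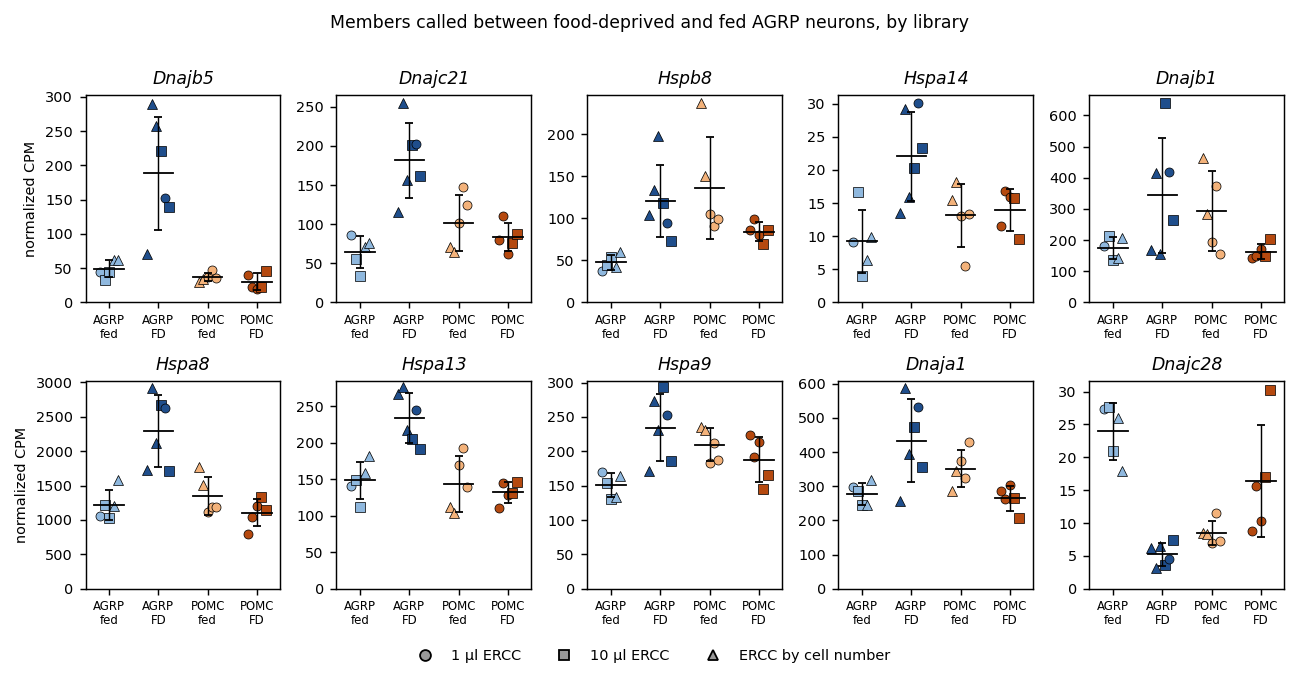
Normalized CPM of the 10 members called between FD and fed AGRP neurons, 1 point a library, in all 4 groups; bars give the mean and SD, and the shape of a point gives the set of spike-in volume. In Dnajb5, Dnajc21, Hspb8, Hspa8, Hspa13 and Hspa9 every FD AGRP library lies above every fed one, and in Dnajc28 every one lies below.

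The genes that heat shock is known to induce showed no uniform rise in AGRP neurons. Of the 12 heat-inducible members (Hspa1a, Hspa1b, Hspa8, Hsph1, Hsp90aa1, Dnajb1, Dnaja1, Hspb1, Cryab, Hspe1, Hspd1 and Hspa4l), 3 were called higher and none lower, against the 5.87% and 4.43% of all genes. These 3 were Hspa8, Dnajb1 and Dnaja1, described above, and none of the others was called. The median log2 fold change of the 12 was 0.30. The list takes in Hspa8, which is largely constitutive, and leaves out Dnajb4, another HSP40 known to respond to stress. Hspa1a, the main inducible HSP70, measured 9.61, 13.2, 4.99, 5.12 and 13 CPM in fed and 8.65 to 56.4 CPM (median 21.2) in FD AGRP libraries. FD replicates 1 and 3 lay within the fed range and replicates 4 and 5 at 41 and 56.4 CPM, and its log2 fold change of 1.53 ± 0.61 did not pass the test (adjusted p = 0.119). Hspa1b, a near-identical neighbour, measured 0.0915 to 0.379 CPM in 4 fed libraries and 3.86 CPM in fed replicate 5, against 0.404 to 7.04 CPM in FD libraries (log2 fold change 2.01 ± 1.18, adjusted p = 0.336). Because only uniquely mapped reads were counted, the level of each of this pair and their split are uncertain.

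Hsph1, Hsp90aa1 and Hspd1 measured close to their fed level. The log2 fold changes were 0.14 ± 0.16 for Hsph1 (adjusted p = 0.691), 0.12 ± 0.16 for Hsp90aa1 (adjusted p = 0.741) and 0.12 ± 0.16 for Hspd1, the mitochondrial HSP60 (adjusted p = 0.73). Hspe1, the HSP10 partner of Hspd1, had −0.07 ± 0.25 (adjusted p = 0.917) and Hspb1, the small heat shock protein HSP27, had 0.47 ± 1.05 at 1.42 to 7.6 CPM (adjusted p = 0.853). Hsp90ab1 had 0.33 ± 0.14 (adjusted p = 0.141), Hspa4, an HSP110, 0.46 ± 0.16 (adjusted p = 0.0627) and Hspa4l −0.14 ± 0.17 (adjusted p = 0.68). The factors themselves did not pass either, with 0.37 ± 0.22 for Hsf1 (adjusted p = 0.338) and 0.06 ± 0.23 for Hsf2 (adjusted p = 0.922).

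The sequence in front of these genes was searched for heat shock elements, which are built of the units GAA and TTC in alternation with 2 bases between units. The 250 bases upstream of each start in RefSeq (GRCm38.p6) were available for 53 of the 69 members. The pair of units GAANNTTC stood in 6.69% and TTCNNGAA in 7.17% of all 32851 starts, and either stood upstream of 14.5% of genes. Both read the same on both strands. Among the 9 heat-inducible members with a start, 7 held a pair (Dnaja1, Hspa1a, Hspa1b, Hspb1, Hspd1, Hspe1 and Hsph1). Among the 6 members with a start that were called higher in FD AGRP neurons (Dnaja1, Dnajb1, Dnajb5, Dnajc21, Hspa14 and Hspb8), Dnaja1 held a pair. That share of 16.7% was near the 14.5% of all genes. Hspa8, Hspa9 and Hspa13, also called higher, had no start and could not be searched. A run of 3 units stood upstream of 0.514% of genes and of 3 members, Hspd1, Hspe1 and Dnajb6. These are matches of letters, not sites at which binding was measured, and imperfect elements were not counted.

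The 30 bases around the elements are shown for the 7 heat-inducible members and for Dnajb6, which holds 3 units, so that the units, in capitals, can be compared. Dnaja4, Dnajb4, Dnajc27, Hspb3 and Hspb6 also held a pair and are not shown. Hspa1a (chr17:34972242-34972271, minus strand) and Hspa1b (chr17:34959324-34959353, minus strand) are the same over these 30 bases, and over the 250 upstream bases they differ at 3 positions. Hspd1 and Hspe1 lie head to head and share 1 element (chr1:55088053-55088082), read on the minus strand for Hspd1 and on the plus strand for Hspe1. The others are Hspb1 (chr5:135887801-135887830, plus strand), Hsph1 (chr5:149636351-149636380, minus strand), Dnaja1 (chr4:40722333-40722362, plus strand) and Dnajb6 (chr5:29735843-29735872, plus strand).
Hspa1a: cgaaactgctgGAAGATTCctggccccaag
Hspa1b: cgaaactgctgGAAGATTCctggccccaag
Hspb1: aGAAGTTTCcagatgggggcaGAACCTTCc
Hspd1: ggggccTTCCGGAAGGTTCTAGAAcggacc
Hspe1: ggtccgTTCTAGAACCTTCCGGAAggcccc
Hsph1: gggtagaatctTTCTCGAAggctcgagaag
Dnaja1: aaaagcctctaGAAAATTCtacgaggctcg
Dnajb6: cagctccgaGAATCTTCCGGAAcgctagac

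For comparison, the whole 250 bases are shown for 3 members that were called higher and hold no such pair: Dnajb1 (chr8:83607925-83608174, plus strand), Hspb8 (chr5:116422865-116423114, minus strand) and Dnajc21 (chr15:10470517-10470766, minus strand). The base next to the start is the last one, and G and C make up 69.6%, 64.4% and 76.8% of the bases.
Dnajb1: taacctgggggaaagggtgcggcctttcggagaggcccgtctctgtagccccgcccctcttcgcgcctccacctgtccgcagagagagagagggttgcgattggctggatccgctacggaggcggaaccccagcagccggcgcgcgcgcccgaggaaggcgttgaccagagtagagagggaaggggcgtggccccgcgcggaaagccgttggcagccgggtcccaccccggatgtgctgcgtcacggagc
Hspb8: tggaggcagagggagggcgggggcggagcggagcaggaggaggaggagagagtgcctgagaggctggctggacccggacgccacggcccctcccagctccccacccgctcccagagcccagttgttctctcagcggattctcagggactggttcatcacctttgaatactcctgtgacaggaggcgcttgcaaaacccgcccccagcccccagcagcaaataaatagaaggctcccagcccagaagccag
Dnajc21: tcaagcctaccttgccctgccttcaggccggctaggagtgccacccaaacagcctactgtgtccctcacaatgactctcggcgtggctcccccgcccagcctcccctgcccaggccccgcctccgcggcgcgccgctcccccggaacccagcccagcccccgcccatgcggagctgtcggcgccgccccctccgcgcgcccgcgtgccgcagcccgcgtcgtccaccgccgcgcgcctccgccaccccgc

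The second question was whether POMC neurons responded likewise. No member passed the test in POMC neurons in edgeR, where 0.182% of all genes were higher and 0.194% lower. At an unadjusted p under 0.05 there were 8 of 62 members, against 12.2% of all genes, so this share was near the background. The limma-voom fit called none and DESeq2 called Hspe1 alone (log2 fold change −0.90, adjusted p = 0.034). Hspe1 was also called without fed replicate 3 (−1.07, adjusted p = 0.0479), while without the cell-number set its value was −0.28 (adjusted p = 0.779). For no member did the groups lie apart, against 2.35% of all genes. The median log2 fold change was −0.14 over members and −0.02 over all genes.

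The values of the heat-inducible members leaned downward in FD POMC neurons. 11 of the 12 had a log2 fold change below 0, with a median of −0.51, against 51.8% of all genes not above 0. An unadjusted p under 0.05 was found for 5 of them, against 12.2% of all genes, and none passed the adjusted test. The 12 genes were measured in the same libraries, so their directions are not independent. The list was also chosen with earlier results of these data known. Dnajb4, outside the list, had 0.27 ± 0.26 (adjusted p = 0.757). Hspe1 measured 227, 206, 80.4, 99.1 and 89.1 CPM in fed and 81.1, 60.7, 65.1, 94.1 and 68.8 CPM in FD POMC libraries (log2 fold change −0.92 ± 0.26, adjusted p = 0.106). Dnajb1 measured 463, 284, 193, 374 and 154 CPM in fed and 142, 149, 173, 151 and 202 CPM in FD libraries (−0.85 ± 0.30, adjusted p = 0.198). Hsph1 measured 825, 1011, 1166, 1099 and 1156 CPM in fed and 681, 782, 938, 727 and 822 CPM in FD libraries (−0.41 ± 0.17, adjusted p = 0.285). In each of these genes the fed and FD ranges overlapped.

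Fed replicates 1 and 2, the only POMC libraries whose spike-in followed cell number and the youngest POMC mice, stood apart for several members. Their values were the 2 highest of the 10 POMC libraries for 10 of 62 members (16.1%), Hspa8, Hspa9, Hspe1, Hspb1 and Hspb8 among them, against 8.29% of all genes. They were the 2 lowest for 4 members (6.45%), Hsp90aa1 and Hspa4l among them, against 5.26% of all genes. Among the 12 heat-inducible members they were the 2 highest for 3 and the 2 lowest for 2. Hspb1 measured 2.71 and 6.3 CPM in fed replicates 1 and 2 and 0 to 0.786 CPM in the other 8. Without the 7 libraries of that set its log2 fold change for FD against fed POMC neurons was 2.49 in place of −2.61, at a few reads a library. Within the 1 µl set, with 3 fed and 3 FD libraries, no member was called either.

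No other core gene passed the test in POMC neurons either. The values were −0.29 ± 0.16 for Hspa8, −0.41 ± 0.17 for Dnaja1, −0.15 ± 0.17 for Hsp90aa1, −0.18 ± 0.16 for Hspd1 and −0.16 ± 0.16 for Hspa9 on the log2 scale (adjusted p between 0.315 and 0.805), and Dnaja1 was among the 5 with an unadjusted p under 0.05. Hsp90ab1 lay near 0 (−0.0048 ± 0.14), Hspa4 at −0.11 ± 0.17, Hspa4l at 0.09 ± 0.17, Hsf1 at 0.06 ± 0.22 and Hsf2 at −0.08 ± 0.24. Hspa1a and Hspa1b had −0.62 ± 0.62 and −2.22 ± 1.28 at fewer than 14 and 1 CPM.

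**Figure D3:**
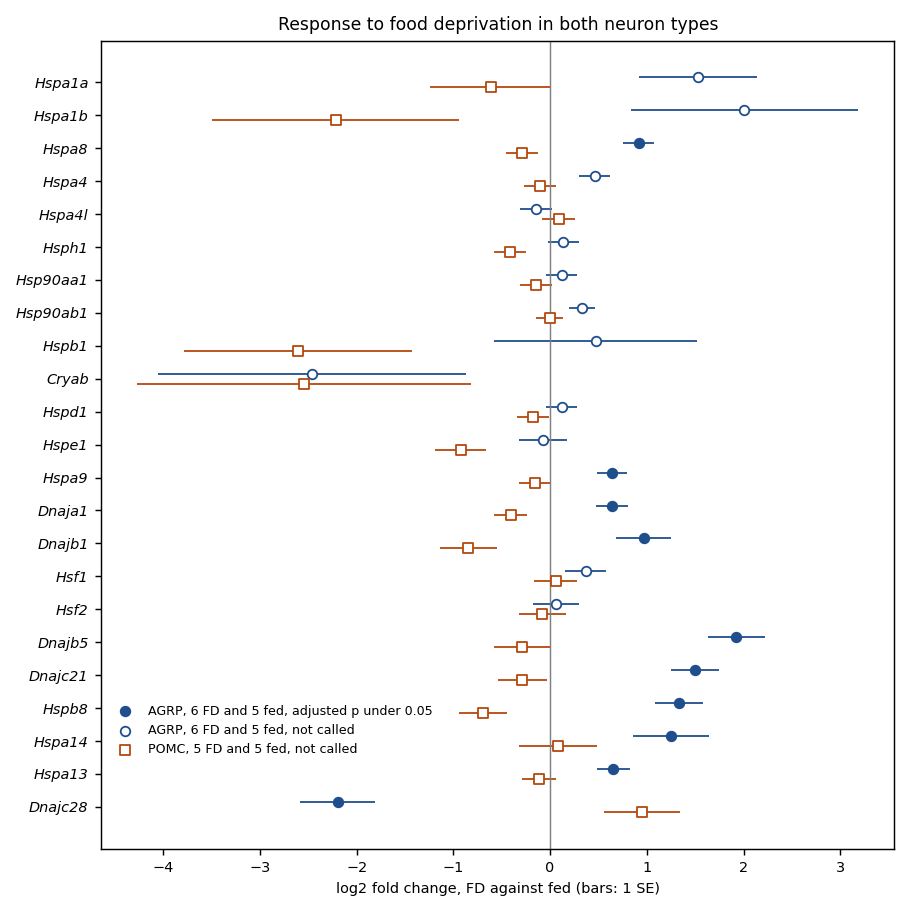
Log2 fold change of FD against fed in AGRP (circles, 6 FD and 5 fed libraries) and POMC neurons (squares, 5 and 5) for the core genes and the members called in AGRP neurons; bars are 1 SE, and filled symbols passed an adjusted p under 0.05. Hspa8, Dnajb1, Dnaja1, Dnajb5, Dnajc21 and Hspb8 lie above 0 in AGRP and below 0 in POMC neurons, where no member was called.

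Whether the response differed between the neuron types was tested as an interaction. It was larger in AGRP neurons for 7 members and smaller for 1, against 4.08% and 2.63% of all genes. On the log2 scale the difference of the responses was 2.22 ± 0.41 for Dnajb5 (adjusted p = 0.000727), 2.03 ± 0.35 for Hspb8 (0.000336), 1.82 ± 0.41 for Dnajb1 (0.0061) and 1.78 ± 0.35 for Dnajc21 (0.00151). It was 1.21 ± 0.23 for Hspa8 (0.0011), 1.05 ± 0.24 for Dnaja1 (0.00705) and 0.80 ± 0.23 for Hspa9 (0.0314). All 8 were also called between FD and fed AGRP neurons. The interaction contains that comparison and uses the same libraries, so this overlap is not independent. For Dnajc28 the difference of the responses was −3.15 ± 0.55 (0.000419). This gene measured 8.46, 8.33, 6.92, 11.5 and 7.19 CPM in fed and 8.79, 15.7, 10.3, 17 and 30.2 CPM in FD POMC neurons. Its mean was thus lower under deprivation in AGRP and higher in POMC neurons. Hspa13 missed the threshold (0.77 ± 0.24, adjusted p = 0.052). Hspa9 missed it without the cell-number set (0.73, adjusted p = 0.132) and without any 1 of 7 libraries.

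The summed level of the 12 heat-inducible members, built from the same values and so no separate evidence, showed the same directions by library. It was 4073 to 6038 CPM in fed and 4450 to 7835 CPM in FD AGRP libraries, which overlapped. In POMC neurons it was 4875 to 5308 CPM in fed and 3770 to 4822 CPM in FD libraries, which did not. Hspa8, Hsp90aa1 and Hsph1 weighed most in this sum, with medians of 1184, 953 and 881 CPM over the POMC libraries. For none of the 12 genes alone did the fed and FD POMC groups lie apart. FD AGRP replicate 1 had the lowest sum of its group (4450 CPM) and also the lowest sum of 8 immediate early genes (984 CPM, against 1258 to 2185 CPM in the other 5).

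**Figure D4:**
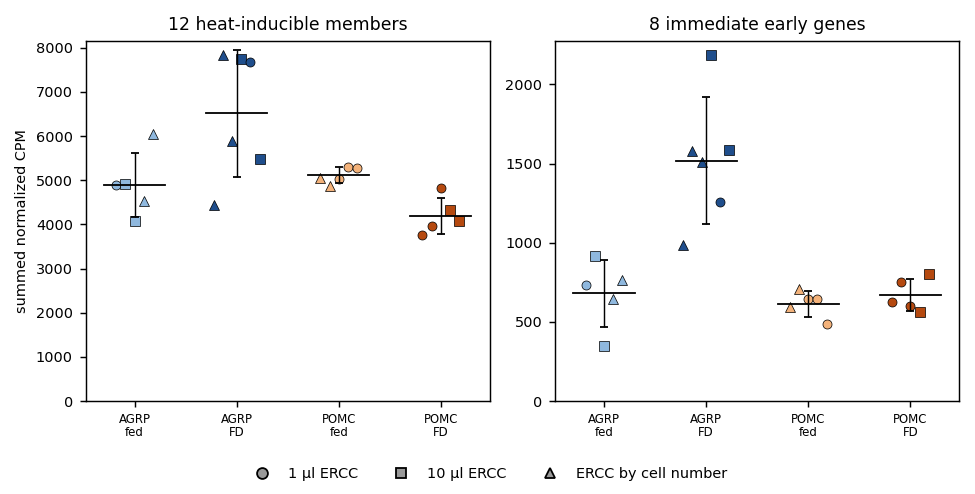
Summed normalized CPM of the 12 heat-inducible members and of the 8 immediate early genes, 1 point a library, with mean and SD and the spike-in set as the shape of the point. In the sum of the 12 members the 5 FD POMC libraries (3770 to 4822 CPM) lie below the 5 fed ones (4875 to 5308 CPM), while the AGRP groups overlap. Hspa8, Hsp90aa1 and Hsph1 weigh most in that sum, and none of the 12 genes alone separates the POMC groups. The summed immediate early genes are higher in every FD AGRP library than in every fed one.

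Genes that work with these chaperones were followed by lists. Of 27 co-chaperones, 3 were higher in FD AGRP neurons and none lower, where 5.87% and 4.43% of all genes were: Fkbp5, a glucocorticoid-induced HSP90 partner (log2 fold change 2.24, adjusted p = 5.54e-05), Tomm70a, a mitochondrial import receptor (0.77, 0.00457), and Sgtb (0.75, 0.0439). Of the 8 subunits of the cytosolic chaperonin CCT, Cct2 (0.53, 0.0175) and Cct7 (0.53, 0.0261) were higher, and of 6 prefoldin subunits Pfdn6 was (1.01, 0.0417). All 6 ER members left out of the set were higher, with a median log2 fold change of 0.97, from 0.65 for Dnajc10 to 1.71 for Hspa5, the ER HSP70 known as BiP. In POMC neurons edgeR called none of the co-chaperones, CCT, prefoldin or ER genes, of which 4, 2, 1 and 0 had an unadjusted p under 0.05, against 12.2% of all genes. Of 8 immediate early genes, which follow neuronal activity and also respond to cell dissociation, Fos, Fosb, Egr1 and Atf3 were higher in FD AGRP neurons. Their part in the chaperone results was not tested.

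Between the neuron types in fed mice 4 of the 62 members tested were called, near the share of all genes (1250 of 16513). Of the members, 1 was higher (1.61%) and 3 were lower (4.84%) in AGRP than in POMC neurons, against 3.33% and 4.24% of all genes. The groups did not overlap for 6 members, against 8.93% of all genes. Hspa12a, a distant HSP70 relative, measured 112, 123, 86.9, 96.9 and 103 CPM in fed AGRP and 229, 212, 248, 246 and 216 CPM in fed POMC neurons (log2 difference −1.14 ± 0.23, adjusted p = 0.00103). Hspb8, described above in AGRP neurons, measured 237, 150, 106, 90.6 and 98.9 CPM in fed POMC neurons (−1.52 ± 0.25, adjusted p = 9.87e-05), the first 2 values being those of the cell-number set. Without that set the difference was −1.11 (adjusted p = 0.0062). Dnajc28 was higher in AGRP neurons (1.50 ± 0.40, adjusted p = 0.0157), a call that was lost without the same set (1.57, adjusted p = 0.125).

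Dnajc27, a Rab-like GTPase with a J domain, had by far the largest difference of the set. It measured 117, 93.8, 92.5, 112 and 106 CPM in fed AGRP neurons, and 5380, 4266, 9865, 9450 and 9180 CPM in fed POMC neurons. The FD values were 76.8 to 141 CPM (median 115) in AGRP neurons and 8621, 9770, 9910, 4206 and 4444 CPM in POMC neurons. The log2 difference between AGRP and POMC neurons was −6.19 ± 0.28 in fed (adjusted p = 4.41e-16) and −6.06 ± 0.26 in FD mice (adjusted p = 1.4e-16), and between FD and fed mice it did not pass the test in either type (0.09 ± 0.21 and −0.05 ± 0.22). Within POMC neurons the 6 libraries of the 1 µl set lay at 8621 to 9910 CPM and the other 4 at 4206 to 5380 CPM, whether fed or FD. The members took 1.56 to 2.23% of gene counts in POMC and 1.13 to 1.55% in AGRP libraries. Without Dnajc27 they summed to 10793 to 12846 CPM in POMC and 10109 to 17947 CPM in AGRP libraries.

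The gene lies on chromosome 12 (mm10, chr12:4082574-4110612), 122 kb downstream of Pomc (chr12:3954951-3960618). Efr3b, which encodes a membrane anchor of a lipid kinase and lies between them (chr12:3962554-4038915), showed the same split. It averaged 15900 CPM in fed POMC and 99.2 CPM in fed AGRP neurons (log2 difference −7.32, adjusted p = 7.03e-17), with 17140 to 21580 CPM in the 1 µl POMC libraries and 7442 to 9837 CPM in the other 4. Pomc did not show that split, with 2184 to 4823 CPM in the 1 µl POMC libraries and 3275 to 8196 CPM in the other 4. Of the 12 genes tested within 500 kb, 4 were called in fed mice, Pomc, Efr3b, Dnajc27 and Ncoa1, and the last by a log2 difference of 0.61 in the other direction. Adcy3, next to Dnajc27 on the far side, measured 22.8 CPM in AGRP and 16.4 CPM in POMC neurons (0.48, adjusted p = 0.527), and Dnmt3a, on the far side of Pomc, 132 and 89.7 CPM (0.55, adjusted p = 0.109). The POMC mice carry a transgene made with Pomc sequence, the AGRP mice do not, and its part in the levels of Efr3b and Dnajc27 was not tested.

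**Figure D5:**
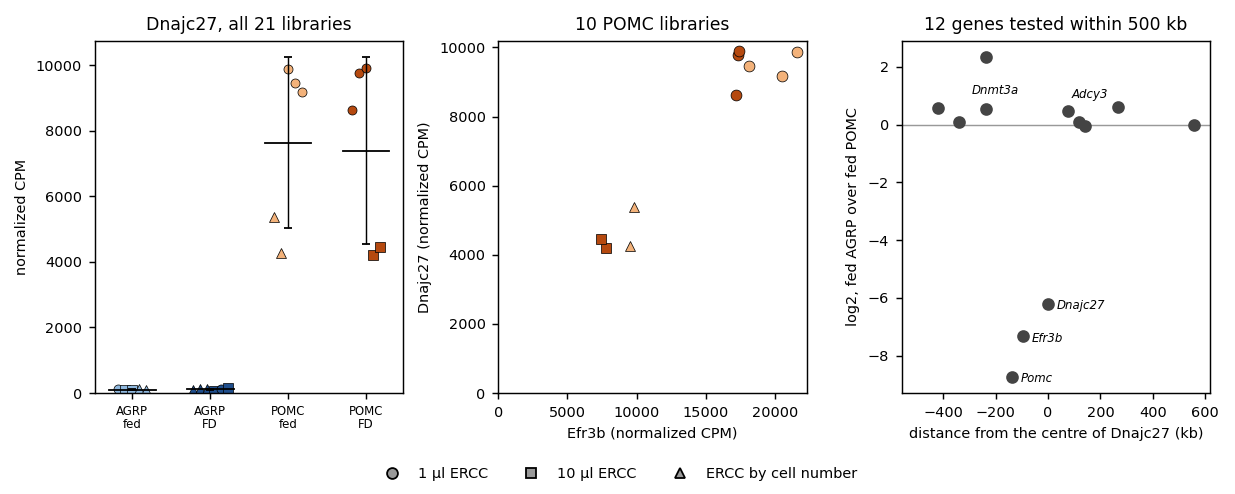
Left, normalized CPM of Dnajc27 in all 21 libraries with mean and SD; centre, Dnajc27 against Efr3b in the 10 POMC libraries (light, fed; dark, FD), with the spike-in set as the shape of the point; right, log2 difference between fed AGRP and fed POMC neurons for the 12 genes tested within 500 kb of Dnajc27. The 6 libraries of the 1 µl set lie at 8621 to 9910 CPM and the other 4 at 4206 to 5380 CPM, and of the genes outside the stretch from Pomc to Dnajc27 only Ncoa1 (0.61) was called.

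Between the neuron types of FD mice 18 members were called, and calls among all genes were also more numerous, 3064 against 1250 in fed mice. Of the members, 12 were higher (19.4%) and 6 lower (9.68%) in AGRP than in POMC neurons, against 9.28% and 9.27% of all genes. The share that was lower was thus near the background. The groups did not overlap for 12 members, against 11.4% of all genes. This comparison shares its FD libraries with the comparisons within each neuron type, so its values are not independent of them. 7 of the 12 heat-inducible members were among those higher in AGRP neurons, while Dnajb4, outside that list, was lower. Hspa8 measured 1713 to 2912 CPM in FD AGRP and 798, 1048, 1199, 1332 and 1149 CPM in FD POMC neurons (log2 difference 1.05 ± 0.16, adjusted p = 1.19e-05). Hsph1, at 894 to 1704 CPM (median 1344) in FD AGRP neurons against 681 to 938 CPM in FD POMC neurons, differed by 0.73 ± 0.16 (adjusted p = 0.00133), though it was called in neither neuron type between FD and fed.

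The inducible HSP70 genes and Hspb1 were low in FD POMC neurons. Hspa1a measured 0.213, 2.1, 10.5, 8.84 and 5.44 CPM there, against 8.65 to 56.4 CPM in FD AGRP neurons (2.29 ± 0.63, adjusted p = 0.00979). Hspa1b had 0, 0, 3, 1 and 2 reads in the 5 FD POMC libraries and 0.404 to 7.04 CPM in FD AGRP neurons (adjusted p = 0.005), and with so few reads its fold change depends on the prior count. Hspb1 lay at 0.0533 to 0.786 CPM in FD POMC and 1.42 to 7.6 CPM in FD AGRP neurons (adjusted p = 0.0303), a call that was lost without any 1 of 5 libraries and with the replicate block (adjusted p = 0.0584). Hsf1 was higher in FD AGRP (55.9 to 96.8 CPM) than in FD POMC neurons (39.6 to 51.1 CPM), with a log2 difference of 0.81 ± 0.22 (adjusted p = 0.00752).

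Dnajb5 (2.64 ± 0.30), Dnajc21 (1.12 ± 0.24), Dnajb1 (1.07 ± 0.29), Hspa13 (0.82 ± 0.17), Dnaja1 (0.71 ± 0.17) and Hsp90ab1 (0.58 ± 0.14) completed those higher in FD AGRP neurons. Lower there, besides Dnajc27, were Dnajc28 (−1.65 ± 0.38, adjusted p = 0.00194) and Hspa12a (−1.49 ± 0.22, adjusted p = 6.34e-06). Dnajb4 measured 96.9 to 346 CPM in FD AGRP and 326 to 468 CPM in FD POMC neurons (−1.08 ± 0.25, adjusted p = 0.00218). Dnajc9, a histone chaperone as well as a J-domain protein, measured 17.6 to 41.2 CPM and 44.8 to 70 CPM (−1.04 ± 0.25, adjusted p = 0.00307). Dnajc6, the auxilin that uncoats clathrin vesicles in neurons, measured 344 to 446 CPM and 472 to 565 CPM, the smallest called difference (−0.39 ± 0.12, adjusted p = 0.0245), which was lost without any 1 of 4 libraries.

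The members also differed in how evenly they were measured among the libraries of a group. Among the 39 with a mean over 20 CPM, the SD of log2 CPM within groups had a median of 0.31, against 0.41 for the 7257 genes over that level. These sets were not matched by level, and the part of level and of the number of sorted cells in the spread was not tested. The evenest were Dnajc6 (0.155) and Dnajc5 (0.166), which serve synaptic vesicles, then Dnaja2 (0.198), Dnajc7 (0.209) and Dnajb14 (0.223). Dnajb12 (0.865), an ER membrane J-domain protein, Dnajc15, Dnajc12, Dnajb1 and Dnajc14 varied most. Dnajb12 ranged from 2.75 to 31.3 CPM among fed POMC libraries alone.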

How the data were processed

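Gene counts were deposited by the authors for each of the 21 libraries. Reads had been trimmed with cutadapt 1.7.1, cleared of abundant sequences with Bowtie2 2.1.0, aligned to mm10 with STAR 2.4.0i and counted, uniquely mapped and without strand, with HTSeq 0.6.1p1. The deposited TPM values were computed by the authors from these counts and summed exon length. Reads on no gene (25.5 to 53.1%) were left out here.

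Counts were tested with edgeR 4.0.16 (quasi-likelihood, TMM, 4 groups in 1 fit, R 4.3.3) on the 16513 genes with CPM over 1 in at least 3 libraries, with Benjamini-Hochberg adjustment, and a gene was called at an adjusted p under 0.05. All p-values in the text are from edgeR unless another tool is named, and the tests were tried on simulated data. limma 3.58.1 and DESeq2 1.42.0 were alternatives. CPM values are TMM-normalized. Members and lists were chosen with earlier results of these data known. The members named were a core list of 17, the 8 with the largest changes among those called in each direction and comparison, the 5 highest by TPM and the 5 most and 5 least variable. Dnajb6, genes near Dnajc27 and members listed by a count were named after their values were seen. Promoters are RefSeq sequences (GRCm38.p6), and figures were drawn with matplotlib 3.10.9.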

Additional observations from a re-analysis of the deposited data

Results flagged for a closer look

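Single libraries stood far from the rest of their group for 3 members. Hspa1b was at 3.86 CPM in AGRP fed replicate 5 and at 0.0915 to 0.379 CPM in the other 4. Cryab was at 1.04 CPM in AGRP FD replicate 1, with 0 in the other 5, and at 0.435 CPM in POMC FD replicate 5, with at most 0.0478 CPM in the other 4. Dnajc15, a mitochondrial J-domain protein, was at 60.0 CPM in AGRP FD replicate 2 and at 39.8 CPM in POMC FD replicate 1. These were 5 of 144 groups tested (3.47%), and the gap limits used (Dixon's test at its 95% critical value) are set so that chance marks about 1 group in 20.

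The response to food deprivation differed between AGRP and POMC neurons for 8 members, by the interaction term in edgeR. The log2 differences were 2.22 for Dnajb5, 2.03 for Hspb8, 1.82 for Dnajb1, 1.78 for Dnajc21, 1.21 for Hspa8, 1.05 for Dnaja1, 0.80 for Hspa9 and −3.15 for Dnajc28.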

How the results depend on the processing

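The number of members called in AGRP neurons, 10 in the report, was 9 to 14 in fits with other tools (limma-voom 14, DESeq2 11) or with RLE factors, in fits of these 2 groups only or of genes not filtered, with spike-in set or sorted cells in the model, and without the cell-number set. It was 5 with the study's criteria, 8 to 13 when single libraries were left out, and 0 with ERCC scaling and in the cell-number set alone, where 5 libraries remained (0 also without AGRP FD replicate 2, and 11 when only that library of the set was kept). In POMC neurons the count of 0 became 1 with DESeq2 and ran from 0 to 1 without single libraries. With ERCC scaling the other counts fell to 1 of 4 (fed AGRP against POMC), 4 of 18 (FD AGRP against POMC) and 0 of 8 (interaction), and the cause was not tested. That scaling moved the median of all genes by −1.11 in POMC neurons, 1.10 between types in FD mice and 1.04 in the interaction, and limma-voom moved it to −0.13 in AGRP neurons. Replicate numbers name different mice and same-numbered libraries did not deviate together. With the replicate block the counts were 9, 0, 4, 17 and 8. The splits by spike-in set were chosen after seeing the data.

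Some changes that were not called turned direction. In AGRP neurons ERCC scaling gave −0.10 for Hsph1, −0.20 for Hsp90aa1 and −0.12 for Hspd1, the cell-number set alone −0.13, −0.16 and −0.13, and the same set without AGRP FD replicate 2 −0.31, −0.36 and −0.21. The called Dnajb1 became −0.12 in that smaller set. Hspe1 there became 0.0019 with sorted cells as a covariate and 0.10 without the cell-number set (0.045 with AGRP FD replicate 2 kept, where Hsf2 became −0.059). In POMC neurons Hsp90ab1 became 0.019 with limma-voom, 0.010 with DESeq2 and RLE factors, 0.0052 with the replicate block and 0.13 with the spike-in block. Hspa4l became −0.82 with ERCC scaling, −0.15 without the cell-number set and −0.067 in the 1 µl set alone. Hsf1 became −1.14 with ERCC scaling, Hspb1 2.49 without the cell-number set and Hspa9 0.11 in the 1 µl set. The called Dnajc6 difference between types in FD mice became 0.74 with ERCC scaling. Without single libraries, Hspd1 ran from −0.026 to 0.21 and Hspe1 from −0.19 to 0.043 in AGRP neurons, and in POMC neurons Hspa4 ran from −0.23 to 0.0049, Hspa4l from −0.011 to 0.21, Hsp90ab1 from −0.053 to 0.043 and Hsf2 from −0.26 to 0.041. Depth limits Hspa1b, Hspb1 and Cryab, with few reads in most libraries.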
